A study of Homo sapiens with 17 samples.

Results

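The 9 genes described here belong to the NRF2 antioxidant response: NFE2L2, which encodes the transcription factor NRF2, its inhibitor KEAP1, and the target genes NQO1, HMOX1, GCLM, GCLC, TXNRD1, SRXN1 and PRDX1. They were chosen by name among the 9699 genes of a table that gives an RNA-Seq level and a ribosome profiling (Ribo-Seq) level for each gene, and all 9 were found, each with 1 coding transcript. Their RNA level, their Ribo-Seq level and their translational efficiency (TE, the Ribo-Seq level divided by the RNA level) were followed over the 12 columns of the table.

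NRF2 is made continuously and is normally bound by KEAP1, an adaptor of the CUL3 ubiquitin ligase that sends it to the proteasome. Electrophiles and oxidants modify cysteines of KEAP1, NRF2 then accumulates, pairs with a small MAF protein and binds antioxidant response elements near genes for quinone reduction, heme breakdown, glutathione synthesis and the thioredoxin system. Because NRF2 is controlled largely through protein stability, the RNA of its targets is the usual readout of its activity, although several of these targets also respond to other factors.

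All samples were BJ cells, human primary fibroblasts immortalized with hTERT, the catalytic subunit of telomerase, and the 17 samples fall into 5 conditions. Proliferating cells were kept under normal conditions and quiescent cells were depleted of serum. For pre-senescence and senescence, cells with hTERT and a tamoxifen-inducible RASG12V, an activated form of the RAS oncogene, were given 4-OHT-tamoxifen, over 5 days in the first case and over 14 days in the second. The transformed cells carried hTERT, stable knockdowns (KD), among them that of p16INK4A, SV40 small T and a retroviral RASG12V. No further construct is named for the proliferating and quiescent cells, and all lines were made by viral transduction and drug selection of 1 fibroblast strain. The libraries were sequenced in 2 runs: run 1 held proliferation, quiescence and pre-senescence, and run 2 held another proliferation sample, senescence and transformation. Values are FPKM, fragment counts scaled by transcript length and by library size, in which the authors had set anything below 1.0 to 1.0. Of the 12 columns, 5 combine 2 replicates in 1 value (proliferation run 1 and quiescence in both assays, and pre-senescence RNA-Seq) and 7 are single libraries (pre-senescence Ribo-Seq and all of run 2). With 1 column per condition there is no error to set a difference against, so no test was made: differences are given as log2 values, a gene is said to be past 2-fold where the log2 difference is at least 1 in either direction, and the counts past 2-fold are set beside the share of all genes past 2-fold. FPKM values keep no read counts, so the number of reads behind each gene's value is unknown. The study does list the reads of each library. By that list the pre-senescence library had the fewest non-rRNA reads of the Ribo-Seq libraries used here. A library of the run 1 proliferation column had almost as few.

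The labels of the run 2 Ribo-Seq libraries conflict. The library titled as senescence has proliferation in its condition field, and the library titled as proliferation has senescence there; the titles, which the table's columns repeat, were followed. MKI67, a marker of cycling cells, had a Ribo-Seq level of 1.00 FPKM, the floor, in the senescence column and of 43.02 in the run 2 proliferation column, beside RNA levels of 1.00 and 43.97. The quiescence columns still held 32.76 FPKM of MKI67 RNA, against 73.87 in run 1 proliferation. CDKN2A RNA, which comes from the gene of p16INK4A but does not separate it from ARF, was 12.64 FPKM in the transformed column and 6.75 in run 2 proliferation, and its Ribo-Seq level was 5.51 against 8.92 FPKM, so the assays differ in direction for the p16INK4A knockdown and the transformed columns are named after their label. HRAS RNA was 311.51 FPKM in the transformed column and between 1253.69 and 2415.28 in the other 5, with the highest value in run 1 proliferation. All 7 fibroblast markers were in the table, with a summed RNA level of 4944 to 7105 FPKM per column. VIM was the largest part of each sum, at 2955.66 to 4881.25 FPKM. In senescence VIM RNA was higher than in run 2 proliferation and the other fibroblast markers were lower. COL1A1 went from 1328.21 to 51.57 FPKM, PDGFRB from 48.45 to 4.49 and DCN from 164.26 to 11.30. None of the 9 epithelial, endothelial and blood markers looked for is among the table's rows. In bulk RNA, fewer cells of one kind and less RNA per cell cannot be told apart.

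The core of the antioxidant response element, TGACNNNGC, was searched on both strands of the RefSeq promoter windows (GRCh38.p14, 250 bases before to 50 after a gene's start). Windows were found by gene name for 7 of the 9 genes, and none was found for HMOX1 or PRDX1. The core occurred in 4 of the 10 windows of these 7 genes (40.0%), those of GCLM, TXNRD1 and KEAP1, against 13.3% of 35116 windows of all genes and 14.7% of 10719 windows of genes in the table. The windows of NFE2L2, NQO1, GCLC and SRXN1 did not hold these letters, which says nothing of elements farther away. The matches are shown with 10 flanking bases on each side and the core in capitals, since this element is what the family is known for; positions count from the gene's first base as 0.
GCLM, chr1:93909446-93909474, plus strand, opposite to the gene, core at -34 to -26: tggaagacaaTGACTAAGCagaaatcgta
TXNRD1, chr12:104215670-104215698, plus strand, same as the gene, core at -99 to -91: acacgggctaTGACTTCGCtgttgtcacc
TXNRD1, chr12:104215761-104215789, minus strand, opposite to the gene, core at -8 to 0: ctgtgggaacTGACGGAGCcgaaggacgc
TXNRD1, another start, chr12:104286920-104286948, minus strand, opposite to the gene, core at -102 to -94: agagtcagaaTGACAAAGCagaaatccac
KEAP1, chr19:10502807-10502835, minus strand, same as the gene, core at -54 to -46: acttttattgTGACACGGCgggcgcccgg
KEAP1, chr19:10502784-10502812, plus strand, opposite to the gene, core at -31 to -23: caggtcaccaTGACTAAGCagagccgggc
GCLM and KEAP1 thus hold the same 9 bases, TGACTAAGC, in both cases on the strand opposite to the gene. These matches are a description of the windows, not of binding.

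In run 1 proliferation the 9 genes spanned much of the range of expression in the table. PRDX1, NQO1 and TXNRD1 were among its most abundant RNAs, above 98.8%, 98.3% and 97.3% of genes, and GCLC was above 31.1%. In Ribo-Seq NQO1 ranked 90 and PRDX1 104 of the 9699 genes. HMOX1, KEAP1, NFE2L2, SRXN1 and GCLM lay between, above 60.5% (GCLM) to 82.9% (HMOX1) of genes in RNA.

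The RNA of NFE2L2, the regulator itself, had little spread. NFE2L2 RNA (ENST00000397062) was 34.69 FPKM in run 1 proliferation, 37.38 in quiescence, 32.96 in pre-senescence, 32.22 in run 2 proliferation, 30.00 in senescence and 35.89 in the transformed column, so that the highest was 1.25 times the lowest, the narrowest RNA range of the 9 genes. Its Ribo-Seq level was 37.10, 33.25, 19.52, 38.99, 36.49 and 37.19 FPKM in the same order. Only the pre-senescence library was apart from the others, 1.90-fold below its control, while its RNA there was 1.05-fold lower.

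KEAP1, the inhibitor, varied more in Ribo-Seq than in RNA. KEAP1 RNA (ENST00000171111) was 39.86 FPKM in run 1 proliferation, 34.69 in quiescence, 36.02 in pre-senescence, 29.09 in run 2 proliferation, 19.41 in senescence and 32.37 in the transformed column. Its Ribo-Seq level was 36.69, 22.35, 20.62, 15.76, 7.79 and 13.07 FPKM, a 4.71-fold range, with all 3 run 2 libraries below all 3 run 1 columns. The senescence library was lowest in both assays, at log2 differences of -0.58 (RNA) and -1.02 (Ribo-Seq) from the run 2 control.

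The ratio of inhibitor to factor, KEAP1 to NFE2L2, ranged wider in Ribo-Seq than in RNA. On the RNA level it was 1.15 in run 1 proliferation, 0.928 in quiescence, 1.09 in pre-senescence, 0.903 in run 2 proliferation, 0.647 in senescence and 0.902 in the transformed column. On the Ribo-Seq level it was 0.989, 0.672, 1.06, 0.404, 0.214 and 0.351, so that senescence had the smallest ratio of either assay and the 3 run 2 libraries lay below the 3 run 1 columns. The 2 proliferation columns, which share a condition, already differed from 0.989 to 0.404, and the part of the run in the low values of run 2 was not tested.

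NQO1, a flavoprotein that reduces quinones by 2 electrons, gave the widest span of RNA differences. NQO1 RNA (ENST00000320623) was 298.41 FPKM in run 1 proliferation, 312.85 in quiescence, 236.80 in pre-senescence, 114.24 in run 2 proliferation, 99.36 in senescence and 355.40 in the transformed column. Its Ribo-Seq level was 1185.09, 998.86, 551.43, 375.42, 256.70 and 1054.45 FPKM. The senescence and run 2 proliferation columns were low and the transformed column was high: it lay 3.11-fold above the run 2 control in RNA and 2.81-fold in Ribo-Seq, but close to run 1 proliferation.

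HMOX1, heme oxygenase 1, which opens the heme ring and is also a target of the heme sensor BACH1, had another order. HMOX1 RNA (ENST00000216117) was 45.57 FPKM in run 1 proliferation, 28.39 in quiescence, 106.68 in pre-senescence, 28.39 in run 2 proliferation, 55.66 in senescence and 21.22 in the transformed column, a 5.03-fold range, the widest of the 9 genes. Its Ribo-Seq level was 97.86, 63.02, 155.60, 60.94, 78.31 and 36.92 FPKM. Both columns of inducible RASG12V were above their own controls, by 2.34-fold at 5 days and 1.96-fold at 14 days in RNA, and the transformed column, which also has RASG12V, was 1.34-fold below its control. NQO1 and HMOX1 were thus at opposite ends in the transformed column, NQO1 at its highest and HMOX1 at its lowest RNA level of all 6.

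GCLM and GCLC, the modifier and the catalytic subunit of glutamate-cysteine ligase, the rate-limiting enzyme of glutathione synthesis, did not keep a fixed ratio. GCLM RNA (ENST00000370238) was 18.63 FPKM in run 1 proliferation, 12.39 in quiescence, 20.99 in pre-senescence, 12.80 in run 2 proliferation, 8.49 in senescence and 20.85 in the transformed column, with Ribo-Seq levels of 71.26, 44.83, 42.40, 61.39, 35.20 and 101.59 FPKM. GCLC RNA (ENST00000229416), the lowest of the 9 genes, was 7.53, 6.90, 10.05, 5.92, 7.40 and 7.21 FPKM, with Ribo-Seq levels of 10.76, 7.31, 11.28, 7.07, 12.04 and 11.09 FPKM. In senescence the modifier subunit was at its lowest in both assays while the catalytic subunit had its highest Ribo-Seq level.

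The ratio of GCLM to GCLC shows this directly. On the RNA level it was 2.47 in run 1 proliferation, 1.80 in quiescence, 2.09 in pre-senescence, 2.16 in run 2 proliferation, 1.15 in senescence and 2.89 in the transformed column. On the Ribo-Seq level it was 6.62, 6.13, 3.76, 8.68, 2.92 and 9.16. The senescence and transformed libraries, which share the run 2 control, were the lowest and the highest of all 6 in both assays, and GCLC RNA, at 5.92 to 10.05 FPKM, is close to the filter of 5 FPKM used below.

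**Figure D1:**
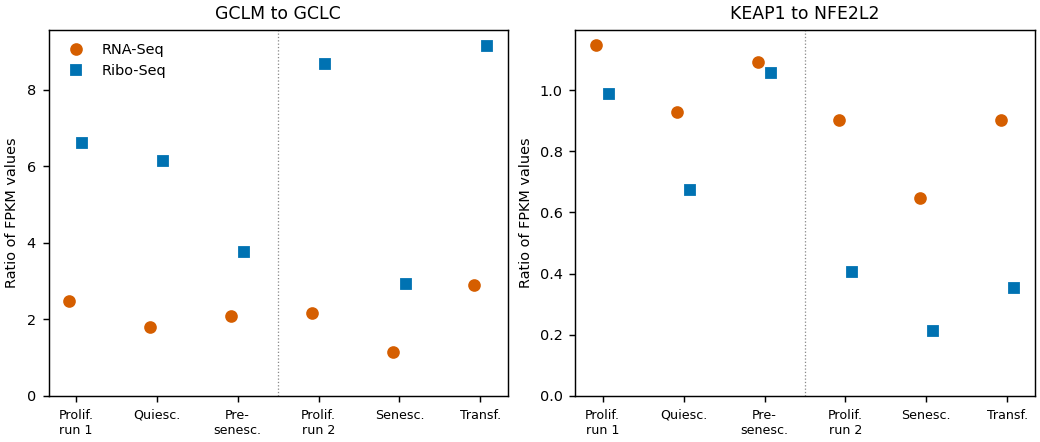
Ratio of FPKM values of GCLM to GCLC (left) and of KEAP1 to NFE2L2 (right) in the 6 RNA-Seq columns (circles) and the 6 Ribo-Seq columns (squares), with a dotted line between run 1 and run 2; there are no error bars because each condition has 1 column. The GCLM to GCLC ratio is lowest in senescence (1.15 in RNA, 2.92 in Ribo-Seq) and highest in the transformed column (2.89 and 9.16), and the KEAP1 to NFE2L2 ratio is lowest in senescence (0.647 and 0.214).

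Of the thioredoxin arm, TXNRD1, the cytosolic thioredoxin reductase and a selenoprotein, was highest in senescence. TXNRD1 RNA (ENST00000525566) was 202.38 FPKM in run 1 proliferation, 161.31 in quiescence, 221.51 in pre-senescence, 155.09 in run 2 proliferation, 330.92 in senescence and 207.01 in the transformed column. Its Ribo-Seq level was 220.51, 129.25, 132.96, 158.38, 312.39 and 220.40 FPKM. The senescence library was above all other columns in both assays, 2.13-fold (RNA) and 1.97-fold (Ribo-Seq) over its control.

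SRXN1, sulfiredoxin, which restores over-oxidized peroxiredoxins, ranged wider in Ribo-Seq (3.91-fold) than in RNA (2.15-fold). SRXN1 RNA (ENST00000381962) was 29.57 FPKM in run 1 proliferation, 22.42 in quiescence, 31.41 in pre-senescence, 14.62 in run 2 proliferation, 19.27 in senescence and 18.94 in the transformed column. Its Ribo-Seq level was 123.21, 65.10, 49.32, 35.51, 31.50 and 46.66 FPKM. The run 1 proliferation column was high in Ribo-Seq, 1.89 times quiescence and 2.50 times pre-senescence, although the pre-senescence RNA level was 1.06 times that of proliferation.

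PRDX1, a peroxiredoxin that reduces hydrogen peroxide and is recharged by thioredoxin, was the most abundant of the 9 in RNA in each column. PRDX1 RNA (ENST00000262746) was 393.69 FPKM in run 1 proliferation, 395.38 in quiescence, 443.59 in pre-senescence, 326.99 in run 2 proliferation, 475.87 in senescence and 402.15 in the transformed column, and its Ribo-Seq level was 1094.77, 965.35, 823.78, 1085.29, 1323.16 and 1181.66 FPKM. The range was 1.46-fold in RNA and 1.61-fold in Ribo-Seq, so that PRDX1 and NFE2L2 were the 2 genes with the least spread in RNA.

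**Figure D2:**
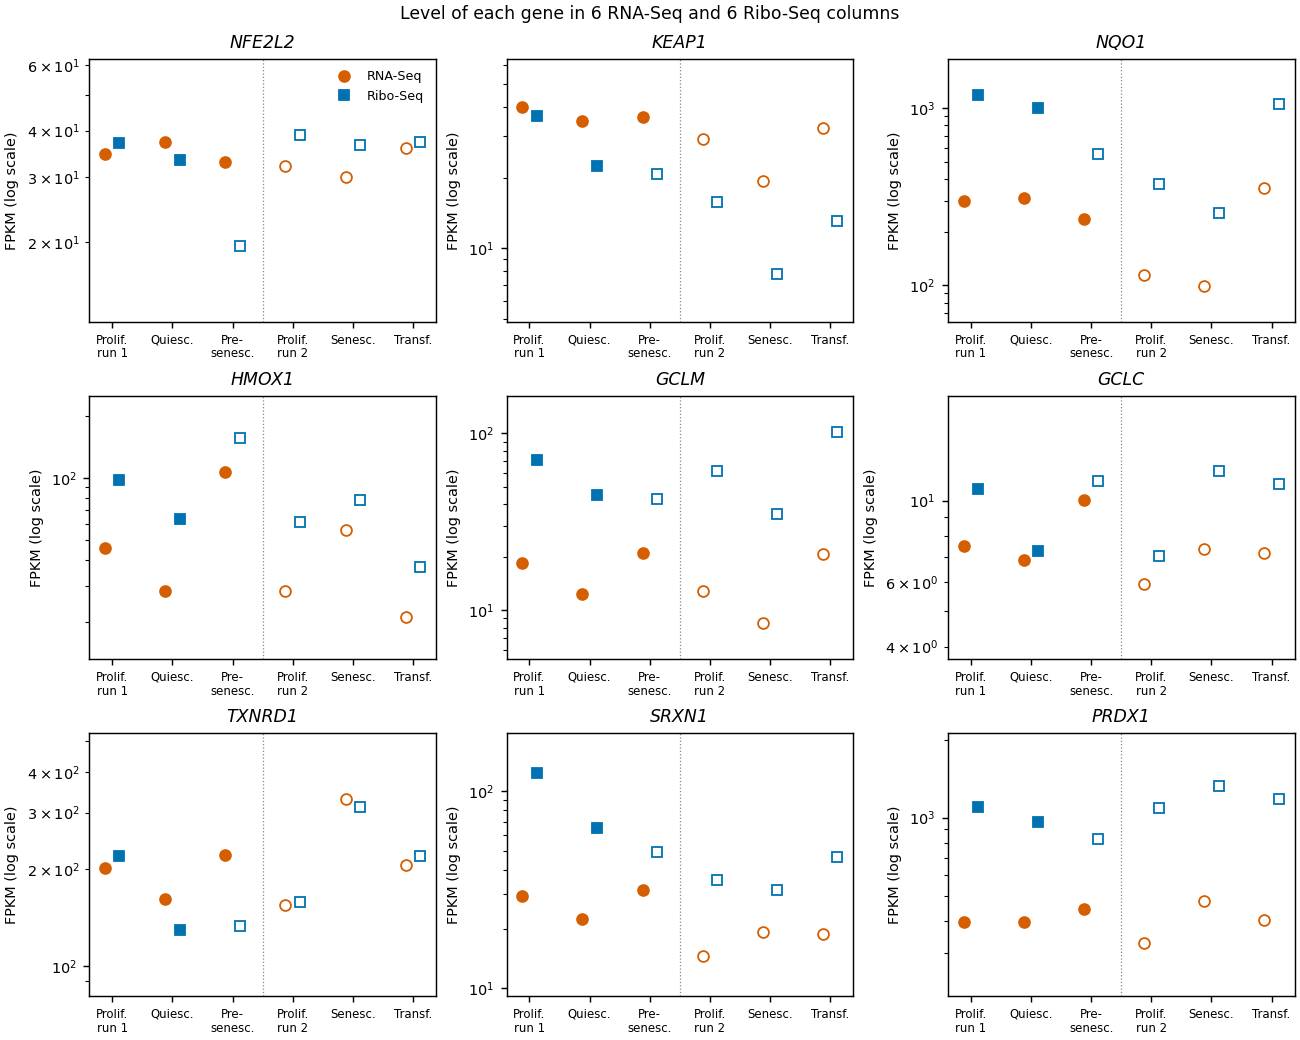
FPKM (log scale, with its own range in each panel) of the 9 genes in RNA-Seq (circles) and Ribo-Seq (squares) in the 6 conditions, with run 1 left and run 2 right of the dotted line; filled symbols combine 2 replicates in 1 value and open symbols are single libraries. NFE2L2 RNA stays between 30.00 and 37.38 FPKM, HMOX1 RNA peaks in pre-senescence at 106.68, TXNRD1 RNA peaks in senescence at 330.92, and NQO1 RNA is at 114.24 and 99.36 in the first 2 columns of run 2 against 236.80 to 355.40 elsewhere.

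Both proliferation columns carry the same label, and their comparison gives the size of difference that arises without a change of condition. In RNA all 9 genes were lower in run 2, with a median log2 difference of -0.45, against -0.09 over all genes, of which 57.1% were lower. NQO1, 2.61-fold lower, and SRXN1, 2.02-fold lower, were past 2-fold, that is 2 of 9 genes, beside 7.4% of the 8091 genes that passed a filter of 5 FPKM in at least 1 of the columns compared. NQO1 was near the end of the distribution, since 0.816% of these genes had a lower difference. In Ribo-Seq 3 genes were past 2-fold, SRXN1 (3.47-fold lower), NQO1 (3.16-fold lower) and KEAP1 (2.33-fold lower), beside 18.1% of all genes. NFE2L2 alone had a difference above 0, of 0.07, beside 47.9% of all genes above 0. In TE no gene was past 2-fold, beside 7.23% of all genes, and KEAP1 and SRXN1 had the lowest values, -0.76 and -0.78.

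These columns differ in run and in sample together, and the 2 cannot be told apart. In RNA-Seq they also differ in read layout. By the study's sample list the run 1 libraries were paired-end and the run 2 libraries were not, which cannot be separated from the run either. Other genes of the cultures differed too: the extracellular matrix gene DCN had 27.61 FPKM of RNA in run 1 proliferation and 164.26 in run 2, CDKN1A had 80.77 and 171.63, and their part in the antioxidant genes was not tested. Each condition was therefore compared with the proliferation column of its own run, as in the study. The comparisons of 1 run share their control column, so agreement between them is no independent repeat.

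In quiescence the Ribo-Seq levels of the antioxidant genes were lower than in run 1 proliferation, and none of the 9 genes was past 2-fold in any measure. In RNA 0 of 9 were past 2-fold, beside 6.36% of all genes, with HMOX1 at -0.68 and GCLM at -0.59 the lowest. Quiescence RNA of NQO1 and PRDX1 lay within 0.07 log2 of the control. In Ribo-Seq 0 of 9 were past 2-fold, beside 16.6% of all genes, but all 9 differences were below 0, as were 56.6% of all genes. The member median was -0.63 against -0.12 over all genes, and SRXN1 at -0.92, TXNRD1 at -0.77 and KEAP1 at -0.72 were lowest. The common sign depended on the control. Set against run 2 proliferation, quiescence Ribo-Seq was higher for NQO1 (998.86 against 375.42 FPKM), SRXN1 and KEAP1. It was only slightly higher for HMOX1 (63.02 against 60.94 FPKM) and GCLC (7.31 against 7.07). It was lower for NFE2L2, GCLM, TXNRD1 and PRDX1. In TE 0 of 9 were past 2-fold, beside 5.14% of all genes. Below 0 were 8 of 9, beside 56.6% of all genes, with a median of -0.31 against -0.07.

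At 5 days of RASG12V HMOX1 RNA was 2.34-fold higher while the ribosome occupancy of most of the other genes was lower. In RNA HMOX1 was the 1 gene of 9 past 2-fold, beside 3.52% of all genes, and 1.16% of all genes had a higher difference. The other 8 RNA differences lay between -0.33 (NQO1) and 0.42 (GCLC). In Ribo-Seq SRXN1, 2.50-fold lower, and NQO1, 2.15-fold lower, were past 2-fold, 2 of 9 beside 16.2% of all genes. HMOX1 at 0.67 and GCLC at 0.07 were the 2 genes above 0, beside 41.8% of all genes. HMOX1 was 1.59-fold higher in Ribo-Seq, against 2.34-fold in RNA. With the run 2 proliferation column as control, the Ribo-Seq differences of NQO1 and SRXN1 turned to 0.55 and 0.47, and after centring on the median of all genes NQO1 was at -0.96.

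TE in pre-senescence was below that of proliferation for all 9 genes, from -0.35 for GCLC to -1.41 for SRXN1. SRXN1, 2.65-fold lower, was the 1 gene of 9 past 2-fold, beside 10.9% of all genes. The median was -0.77 against -0.17 over all genes, of which 60.9% were below 0. SRXN1 lay farthest out, with 2.70% of all genes lower, followed by GCLM at -0.92 with 9.29% lower, TXNRD1 at -0.86 with 10.8% and NFE2L2 at -0.85 with 11.1%. The pre-senescence Ribo-Seq column is 1 library set against a column that combines 2, and its part in these values was not tested. For the same genes TE differed between the proliferation columns by -0.78 to 0.33, and with the run 2 column as control 8 of 9 were below 0, with KEAP1 at 0.08 and SRXN1, no longer past 2-fold, at -0.63, while GCLM at -1.25 and NFE2L2 at -1.03 were past it.

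At 14 days of RASG12V, TXNRD1 was past 2-fold up in RNA and KEAP1 past 2-fold down in Ribo-Seq. In RNA no other of the 9 genes was past 2-fold, so 1 of 9 stood beside 20.1% of all genes, with HMOX1 just under it at 0.97, PRDX1 at 0.54, and GCLM and KEAP1 at -0.59 and -0.58. In Ribo-Seq KEAP1, at -1.02, was the 1 gene past 2-fold, beside 28.6% of all genes. TXNRD1 at 0.98 lay just inside the threshold, GCLC was at 0.77 and GCLM at -0.80. With 9 genes, and with HMOX1 RNA and TXNRD1 Ribo-Seq just inside the threshold, these counts do not set the 9 genes apart from all genes. Neither TXNRD1 in RNA nor KEAP1 in Ribo-Seq passed a threshold in local SDs after the study's rule, which 7.47% (RNA) and 7.61% (Ribo-Seq) of all genes passed. With the run 1 proliferation column as control TXNRD1 RNA was at 0.71 and HMOX1 RNA at 0.29, and with a pseudocount of 1 added to the FPKM values KEAP1 was no longer past 2-fold in Ribo-Seq. If the run 2 Ribo-Seq libraries are taken by their condition field, the KEAP1 difference becomes 1.02.

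TE in senescence was past 2-fold for 0 of 9 genes, beside 8.81% of all genes. The values went from -0.61 for HMOX1, -0.57 for SRXN1 and -0.43 for KEAP1 to 0.45 for GCLC, with a median of -0.26 against -0.06 over all genes. HMOX1 TE was also lower in pre-senescence, at -0.56, against another control. NFE2L2 TE was within 0.01 log2 of its control in senescence.

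In the transformed column NQO1 was past 2-fold in both assays, with GCLM next. NQO1, at log2 differences of 1.64 in RNA and 1.49 in Ribo-Seq, was the 1 gene of 9 past 2-fold in each, beside 9.46% of all genes in RNA and 12.2% in Ribo-Seq. GCLM was 1.63-fold higher in RNA and 1.65-fold in Ribo-Seq. In RNA 8 of 9 genes were above 0, as were 60.3% of all genes, with a median of 0.30 against 0.10, and HMOX1 at -0.42 was the exception. In TE 0 of 9 were past 2-fold, beside 2.06% of all genes, with values from -0.42 (KEAP1) to 0.37 (GCLC).

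The transformed result for NQO1 rests on which proliferation column is the control. Against the run 2 column its RNA was 3.11-fold higher, and against the run 1 column the log2 difference was 0.25 in RNA and -0.17 in Ribo-Seq. The transformed column, at 355.40 FPKM of RNA, thus stood apart from the other run 2 columns and not from run 1.

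The transformed and senescence libraries, both from run 2 and both with RASG12V, can be set against each other without a proliferation column. In RNA 3 of 9 genes were past 2-fold, beside 23.1% of all genes: NQO1 was 3.58-fold and GCLM 2.46-fold higher in the transformed library, and HMOX1 was 2.62-fold lower. In Ribo-Seq the 3 genes past 2-fold were again NQO1 (4.11-fold higher), GCLM (2.89-fold higher) and HMOX1 (2.12-fold lower), beside 30.7% of all genes. Transformed against senescence TE had 0 of 9 genes past 2-fold, beside 4.81% of all genes, with SRXN1 highest at 0.59. The libraries differ at once in the knockdowns, SV40 small T, the RASG12V construct and the time of its expression. They also differ in 4-OHT-tamoxifen, which is described for the senescent cells and not for the transformed cells.

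**Figure D3:**
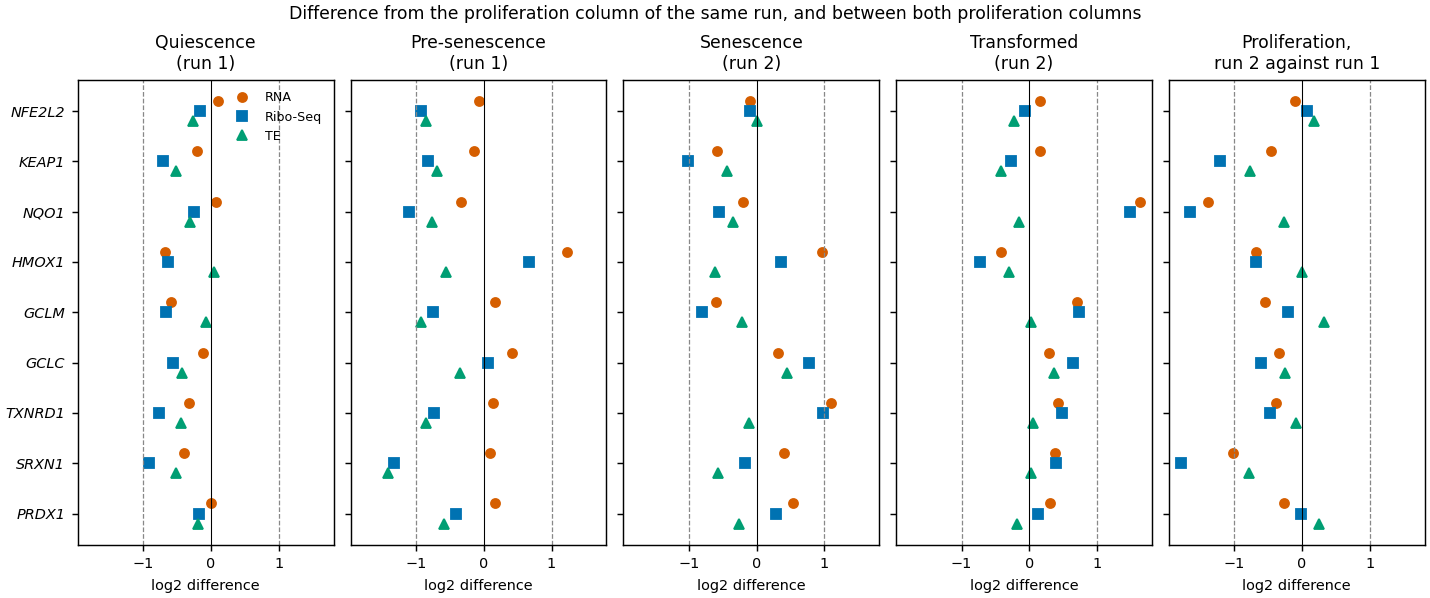
Log2 difference in RNA level (circles), Ribo-Seq level (squares) and TE (triangles) of each of the 9 genes against the proliferation column of the same run, and, at the right, of run 2 against run 1 proliferation; dashed lines mark 2-fold. HMOX1 RNA at 5 days (1.23), TXNRD1 RNA in senescence (1.09) and NQO1 RNA (1.64) in the transformed column lie past the upper line, and the NQO1 difference between the proliferation columns (-1.39) is of like size to its difference in transformation.

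In TE itself, 8 of the 9 genes kept to 1 side of the median of all genes in every condition. In run 1 proliferation TE, as the ratio of the 2 FPKM values, was 4.17 for SRXN1, 3.97 for NQO1, 3.83 for GCLM, 2.78 for PRDX1, 2.15 for HMOX1, 1.43 for GCLC, 1.09 for TXNRD1, 1.07 for NFE2L2 and 0.921 for KEAP1. On the log2 scale the median over all genes was between 0.22 and 0.40 in the 6 conditions. NQO1, GCLM, PRDX1, SRXN1 and HMOX1 were above that median in all 6, from 0.49 for HMOX1 in senescence to 2.28 for GCLM in the transformed column. KEAP1, NFE2L2 and TXNRD1 were below it in all 6, from 0.28 for NFE2L2 in run 2 proliferation and in senescence to -1.32 for KEAP1 in senescence. GCLC, at 0.08 to 0.70, was on either side. The regulators and TXNRD1 thus had a lower TE than NQO1, GCLM, PRDX1, SRXN1 and HMOX1 in each condition, and neighbours such as TXNRD1 and NFE2L2 changed places between columns. RNA-Seq reads were counted over the whole transcript and Ribo-Seq reads over the coding sequence, so a level of TE also depends on the transcript model chosen.

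Genes most like NQO1, the gene with the widest span of the 4 RNA differences (1.97), were sought among the 7472 genes that passed the filter, by Euclidean distance over these 4 differences. The nearest were H1F0 (a linker histone, distance 0.33), MAP3K5 (a stress-activated kinase, 0.50), PIK3CD (a catalytic subunit of PI3-kinase, 0.52), PFKFB3 (a regulator of glycolysis, 0.59) and DUSP7 (a phosphatase of MAP kinases, 0.59). Of the antioxidant genes GCLM was nearest at 1.31 and HMOX1 farthest at 2.93. That no other member is among the nearest genes says little, since the family holds few of the 7472 genes. The distance uses 6 columns and no replicate, and 2 controls enter it.

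The wider antioxidant network was covered by 7 lists with 51 genes, of which 45 were used here. Between the proliferation columns 0 of 44 genes that passed the filter were past 2-fold up in RNA in run 2 and 6 were down, beside 4.49% and 2.92% of all genes. These were OSGIN1 (an NRF2 target, -1.76), PIR (an iron-binding target of NRF2, -1.79), PGD and ME1 (NADPH supply, -1.11 and -1.10), and SLC7A11 and SLC3A2 (the 2 chains of the cystine transporter, -1.03 and -1.02). The median of all 44 was -0.12, against -0.09 over all genes, and NADPH supply had the lowest list median, at -0.84 over 5 genes.

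In quiescence 2 of 45 listed genes were past 2-fold in RNA, a share close to the 6.36% of all genes, and both were up: IDH1, a cytosolic source of NADPH (1.63), and PRDX5, a peroxiredoxin (1.11). In pre-senescence RNA 0 of 45 were past 2-fold either way, beside 3.52% of all genes. HMOX1 was thus the 1 gene of the network, members and lists together, past 2-fold there, and with so low a share few were to be looked for. TE was below 0 for 41 of the 45 listed genes in pre-senescence, beside 60.9% of all genes, with a median of -0.47, and 6 were past 2-fold down, beside 7.48% of all genes: NQO2 (-1.62), AKR1C1 (-1.30), GPX4 (-1.17), PRDX3 (-1.17), BACH1 (-1.12) and PIR (-1.08). AKR1C1 has near-identical paralogs, so its value is uncertain. The lower TE of the 9 genes in that library was therefore shared in sign by most of the listed genes.

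In senescence RNA 8 of 43 listed genes were past 2-fold up and 0 down, beside 7.67% and 12.4% of all genes. They were SOD2, the mitochondrial superoxide dismutase (3.21), SQSTM1, the p62 protein, which competes with NRF2 for KEAP1 (1.85), AKR1B1, aldose reductase (1.40), HMOX2, the constitutive heme oxygenase (1.29), TXN, thioredoxin (1.204), GPX1, a glutathione peroxidase (1.17), and the small MAF genes MAFF (1.08) and MAFG (1.03). The list median was 0.42 against 0.03 over all genes. In TE 1 of 42 listed genes was past 2-fold up, SLC7A11 at 1.39, and 4 were down, beside 2.54% and 6.27% of all genes: GPX1 and GPX4 at -1.54 each, TXN at -1.14 and MAFG at -1.12. GPX1 and GPX4 are selenoproteins as is TXNRD1, whose TE difference there was -0.11.

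In the transformed RNA column 7 of 44 listed genes were past 2-fold up, beside 4.55% of all genes: SOD2 (2.45), AKR1B1 (2.19), SLC7A11 (1.34), OSGIN1 (1.23), ME1 (1.18), PIR (1.07) and MAFF (1.02). PRDX6, a peroxiredoxin with phospholipase activity, was the 1 gene past 2-fold down (-1.27), beside 4.92% of all genes. SLC7A11, OSGIN1, ME1 and PIR, like NQO1, were also past 2-fold down in run 2 against run 1 proliferation, and the 2 comparisons share the run 2 column. SLC7A11 RNA was 20.05 FPKM in run 1 proliferation, 9.82 in run 2 proliferation and 24.78 in the transformed column, and ME1 RNA was 33.66, 15.75 and 35.75. SOD2 RNA was 19.99 FPKM in run 2 proliferation, 184.40 in senescence and 109.42 in the transformed column.

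**Figure D4:**
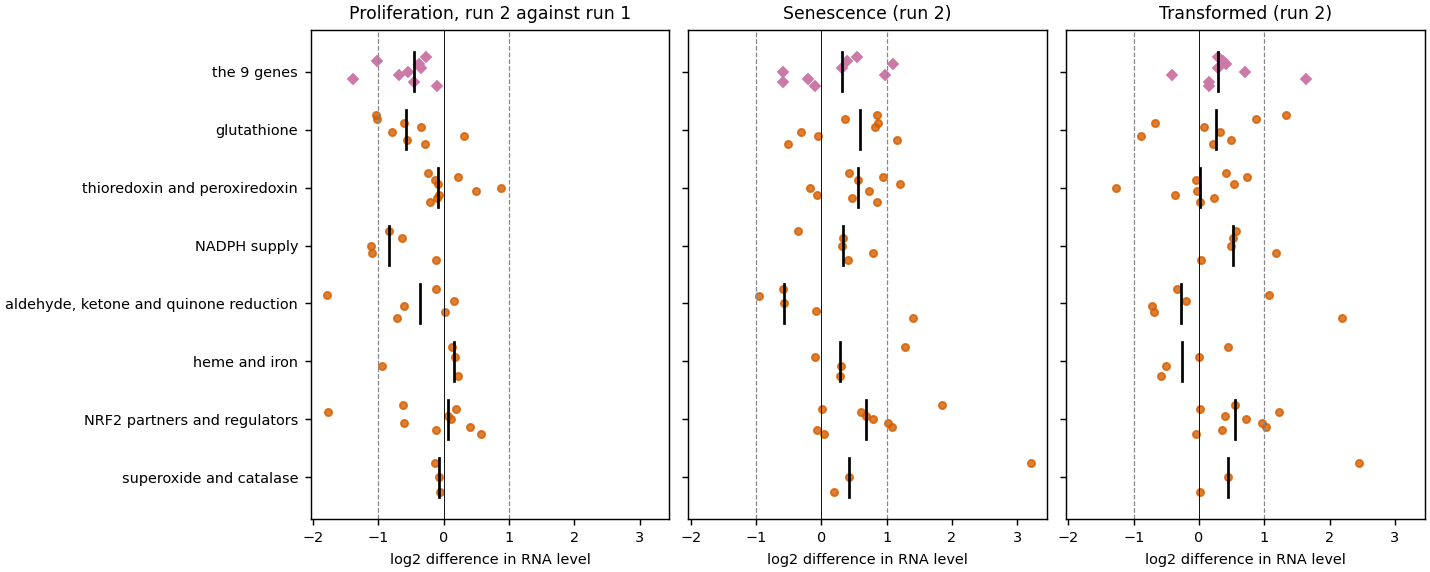
Log2 difference in RNA level of the 9 genes (diamonds) and of the genes of 7 antioxidant lists that passed the filter (circles), for run 2 against run 1 proliferation, senescence and transformation; black bars are list medians and dashed lines mark 2-fold. In the left panel all 9 diamonds are below 0 (median -0.45), and in the middle and right panels SOD2 is farthest to the right, at 3.21 and 2.45.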

How the data were processed

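RNA-Seq (poly(A) RNA) and Ribo-Seq were made by the authors, who aligned reads with Bowtie (version not given in the sources used here; hg19 per the submitters' processing notes) to 1 coding transcript per gene and kept unique reads. The deposited FPKM values count reads over the transcript (RNA-Seq) or the coding sequence (Ribo-Seq), floored at 1.0. Here, log2 differences and TE were computed with python 3.11.15, pandas 2.3.3 and numpy 2.4.6, with a filter of 5 FPKM in at least 1 column compared (for TE, in both assays). With 1 column per condition no model had residual degrees of freedom, so no p-value was computed; the code was tested on simulated data. The 9 genes were all named; listed genes were named where past 2-fold in RNA within a run, and those past 2-fold in TE or between runs were named after their values were seen. The genes and lists were chosen with earlier results of these data known. Depth is unknown. How the authors combined the 2 replicates is not given in the sources used here. Alternatives are given in the closing section. The check of another knocked-down gene is not reported here.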

Additional observations from a re-analysis of the deposited data

How the results depend on the processing

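No paired analysis was possible because the replicates of a condition are already combined in 1 column, and none could be left out in turn. The counts of genes past the threshold (of 9) were recomputed under each alternative. With a 1.5-fold threshold they were, each beside the share of all genes, 2 (RNA, 19.4%) and 5 (Ribo-Seq, 40.9%) in quiescence, 7 (Ribo-Seq, 38.1%) and 6 (TE, 33.8%) in pre-senescence, 3 (RNA, 41.1%), 4 (Ribo-Seq, 50.8%) and 1 (TE, 30.9%) in senescence, and 2 (RNA, 23.6%) and 4 (Ribo-Seq, 27.9%) in transformation. A threshold in local SDs over the 500 genes nearest in level, after the study's rule, gave 3 for TE in pre-senescence (9.45%). In senescence it gave 0 for RNA (7.47%) and 0 for Ribo-Seq (7.61%). A pseudocount of 1 gave 0 for Ribo-Seq in senescence (25.7%), and centring on the median of all genes gave 1 for Ribo-Seq in pre-senescence (16%). The median subtracted was -0.12 in quiescence Ribo-Seq, -0.14 in pre-senescence Ribo-Seq, -0.17 in pre-senescence TE and 0.10 in transformed RNA. With the control of the other run the counts were 1 (RNA, 8.4%) and 1 (Ribo-Seq, 20.6%) in quiescence, 3 (RNA, 11.8%), 1 (Ribo-Seq, 24.1%) and 2 (TE, 15.5%) in pre-senescence, 3 (RNA, 30.3%), 4 (Ribo-Seq, 42.8%) and 2 (TE, 16.5%) in senescence, and 3 (Ribo-Seq, 20.7%) and 1 (TE, 10.5%) in transformation. Under that control 3 called log2 differences changed sign: NQO1 to 0.55 and SRXN1 to 0.47 in pre-senescence Ribo-Seq, and NQO1 to -0.17 in transformed Ribo-Seq. The count in transformed RNA stayed at 1 (10.2%), but the gene was HMOX1 (21.22 against 45.57 FPKM) in place of NQO1. In pre-senescence Ribo-Seq the 1 gene was HMOX1, which was higher (155.60 against 60.94 FPKM), in place of SRXN1 and NQO1. With run 2 Ribo-Seq libraries taken by the condition field, the counts were 5 (TE, 47.7%) in senescence and 3 (Ribo-Seq, 30.7%) in transformation, and KEAP1 in senescence Ribo-Seq changed to 1.02. Dropping the filter moved none of the 12 counts. The cause of these moves was not tested. Single libraries and unknown read counts per gene limit all of these values, and GCLC lies closest to the filter.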
